A study of Rattus norvegicus with 12 samples.

Results

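Integrins are the cell surface receptors that attach cells to matrix and to each other, and laminins are the chains of the sheet, the basement membrane, that lies under endothelium and around muscle, fat and nerve cells. The genes described here are those whose symbols name an integrin subunit alpha or beta or a laminin chain alpha, beta or gamma, without the platelet pair Itga2b and Itgb3, together with the basement membrane linkers Nid1, Nid2, Hspg2 and Agrn and the adhesive plasma protein vitronectin (Vtn). The rule names 40 genes of the rat annotation, of which 28 were measured among 17379 features; each of the 28 rests on 1 RefSeq transcript. The other 12 (Hspg2, Itga11, Itga2, Itga3, Itga9, Itgav, Itgax, Itgb8, Lama2, Lama3, Lamb1 and Nid1) were not analysed here. RNA was sequenced from the hematoma of a femoral defect in male SAS Fischer rats of 200 to 225 g, with 3 libraries for each of 3 defects: 0.5 mm (called normal, for normal healing), 1.5 mm (delayed, for delayed healing) and 5.0 mm (nonunion). A further 3 libraries came from the intact femur piece cut out when the 5.0 mm defect was made (preOP), which received no treatment. The labels give neither the day of collection nor whether the libraries came from separate animals, so p-values measure the spread between libraries.

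An integrin is a pair of 1 alpha and 1 beta chain, and the alpha chain largely sets what is bound. The beta 1 chain (Itgb1) pairs with many alpha chains to bind collagen, laminin or fibronectin, whereas the beta 2 chain (Itgb2) is found on leukocytes and pairs with alpha L, M, X and D to bind intercellular adhesion molecules, fibrinogen and complement fragments. A laminin is a trimer of 1 alpha, 1 beta and 1 gamma chain, and nidogens link the laminin network to that of type IV collagen. In vessels, the alpha 4 and alpha 5 chains are the known endothelial laminin chains.

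Library totals ran from 16808993 to 24325162 estimated reads. In nonunion 2, ribosomal RNA took 72.24% of the reads (0.1593% to 1.747% in the other libraries); this library was also the richest in adipocyte markers (6 genes, summed 11210 CPM, read counts per 1000000 after TMM scaling, against at most 716 CPM elsewhere). Library delayed 2 was the richest in skeletal muscle markers (7 genes, 29840 CPM, against at most 8353 CPM elsewhere). Globin genes took 15.66% to 23.98% of the preOP reads and 0.0328% to 2.959% of the hematoma reads. The 7 osteoblast and osteocyte markers summed to 1578 to 1926 CPM in normal, 405 to 513 CPM in preOP and 6.45 to 13.7 CPM in delayed and nonunion, so these bone markers were near 0 in the latter 2 hematoma groups. The 3 normal libraries stood apart in the number format of their files and in the median gap between transcript and effective length (157.2 to 191.6 bases against 194.3 to 254.6), a difference that cannot be told apart from the normal group.

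Itgb1 had the highest level per length of the 28 genes in every library. Its level was 194 to 384 TPM (transcripts per 1000000) in normal and 77.2 to 110 TPM in preOP. The preOP TPM are divided by a total rich in globin (15.66% to 23.98% of reads), so the change between groups is read in TMM-scaled CPM below. Delayed libraries held 332 to 441 TPM and nonunion libraries 31.7 to 411 TPM, the lowest being nonunion 2, whose TPM are divided by a total that is mostly ribosomal RNA. Itgb2 came second in 9 of 12 libraries. The alpha chain with the highest TPM was Itga5, Itga7 or Itgam in the hematomas and Itgam in each preOP library. At the low end, Lamc3 stayed below 0.24 TPM in 11 libraries and Itga10 below 0.08 TPM in the 3 nonunion libraries.

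**Figure D1:**
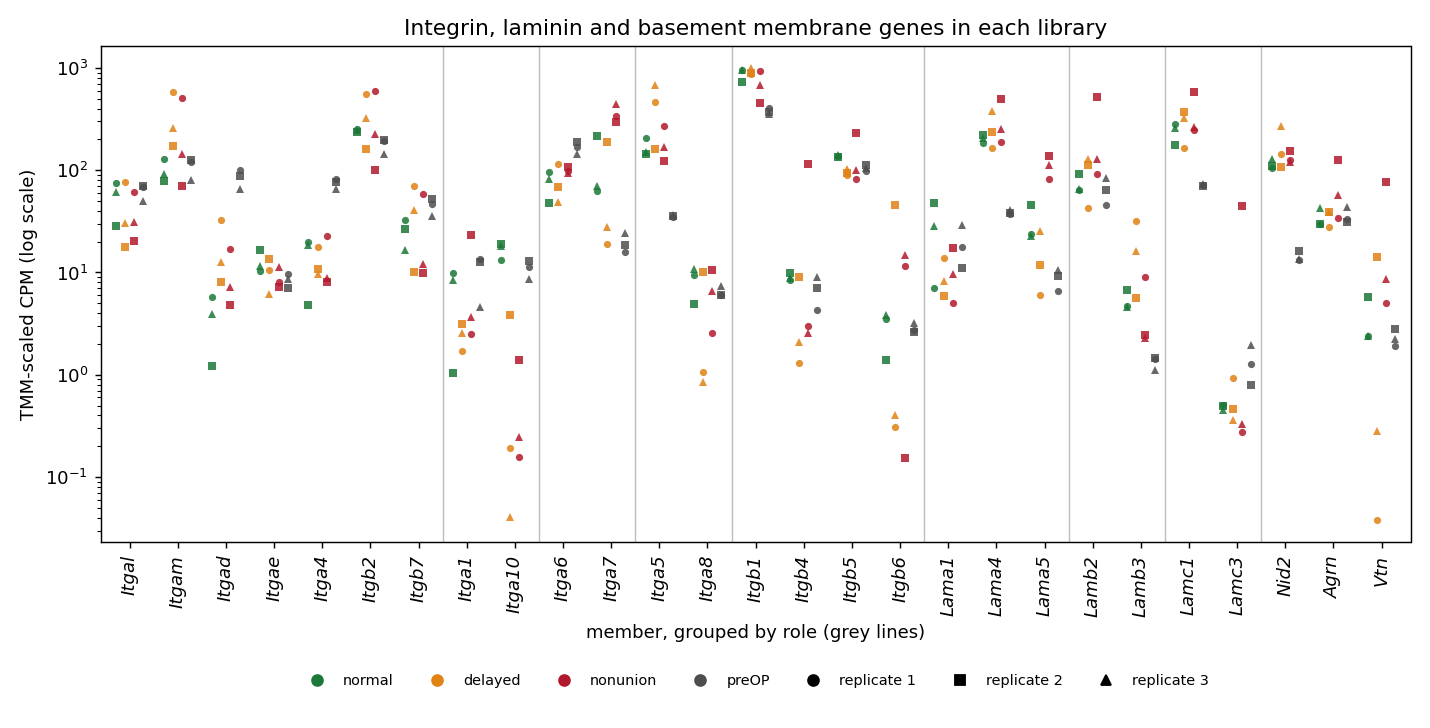
TMM-scaled CPM (log scale) of 27 of the 28 genes in each of the 12 libraries, grouped by role (grey lines); colours are groups and symbols are replicate numbers. Lama4, Lamc1 and Nid2 sit higher in all 9 hematoma libraries than in the 3 preOP libraries, while Itgad and Itga4 sit lower.

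Against preOP, 12 of 28 genes were called in normal (9 higher, 3 lower), 10 in delayed (7 higher, 3 lower) and 12 in nonunion (9 higher, 3 lower). A gene was called at an edgeR adjusted p below 0.05. The background over all features was 42.6% in normal, 28.2% in delayed and 28.4% in nonunion, so the total of 12 in normal (42.9% of the 28) lay at the background. The 3 comparisons share the preOP libraries, so they are not independent of each other. By role, of 8 laminin chains 5, 4 and 5 rose and none fell in normal, delayed and nonunion. These were 62.5%, 50% and 62.5%, against a background of 20.5%, 12.6% and 13.5% called higher. Of 7 leukocyte integrins 0 rose and 2 fell (28.6%) in each, against 22.1%, 15.6% and 14.9% called lower. Of 10 matrix integrins 3, 2 and 3 rose (30%, 20% and 30%) and 1 fell in each. With so few genes, the leukocyte and matrix integrins are not read as departing from the background. The median log2 fold change of the laminin chains was 1.76, 1.36 and 2.68, that of the matrix integrins 0.40, -0.42 and 0.62 and that of the leukocyte integrins -0.20, -0.16 and -0.74, beside -0.09, -0.03 and -0.00 over all features. In bulk tissue, fewer cells of a type and less RNA per cell cannot be told apart.

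**Figure D2:**
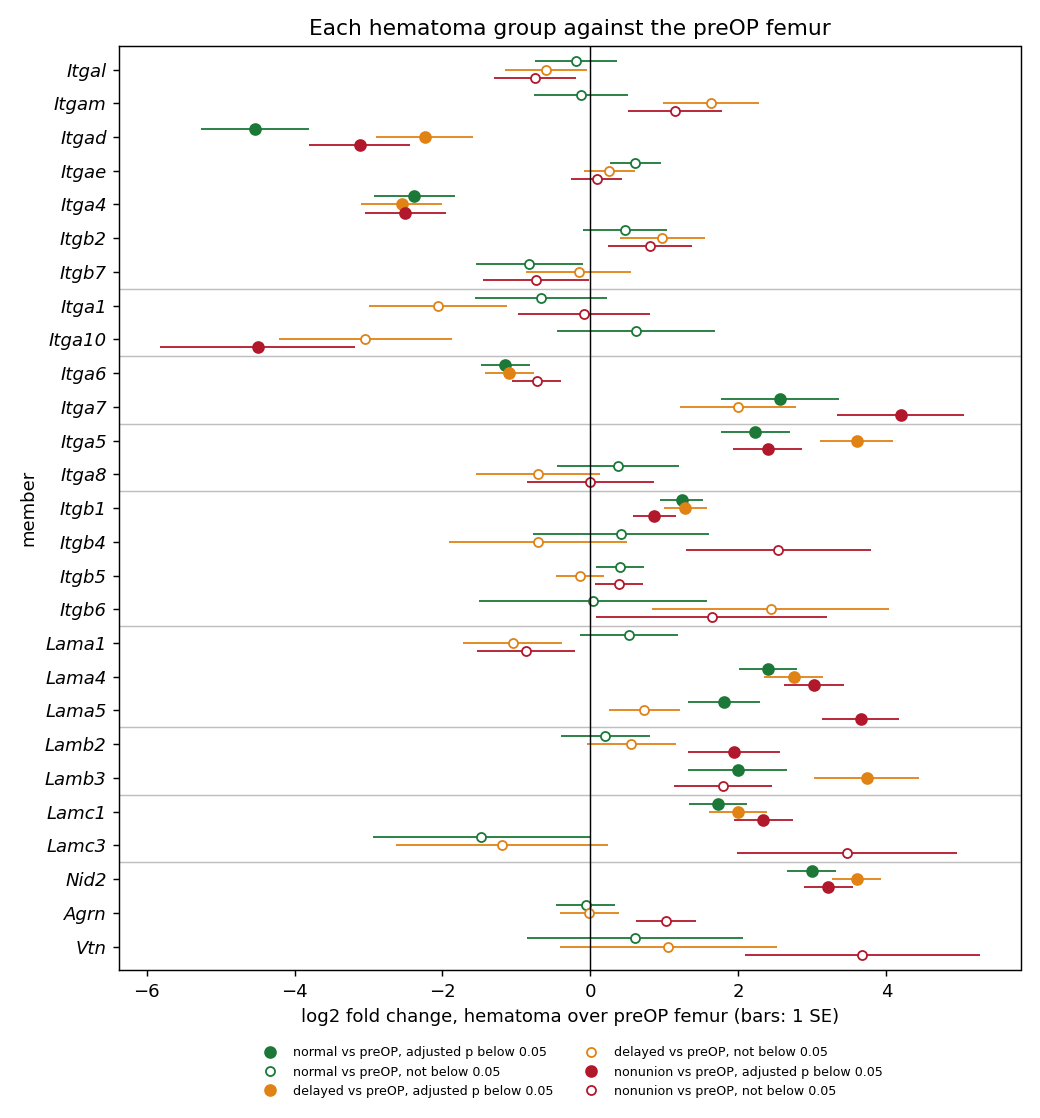
Log2 fold change of 27 of the 28 genes in the normal, delayed and nonunion hematomas over the preOP femur, with bars of 1 SE; filled points have an edgeR adjusted p below 0.05. Laminin chains and Nid2 hold most filled points on the right, and Itgad and Itga4 are the leukocyte genes with filled points, on the left.

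The subunits of the classical fibronectin receptor were both higher in hematoma. Itga5, its alpha chain, stood at 205, 145 and 152 CPM in normal, 459, 161 and 674 CPM in delayed, 272, 123 and 168 CPM in nonunion and 34.6, 35.9 and 36.4 CPM in preOP. All 9 hematoma libraries lay above the preOP libraries, and delayed 1 and 3 were the highest of all. Itga5 rose over preOP by 2.23 on the log2 scale in normal (SE 0.46, edgeR adjusted p = 0.0034), by 3.60 in delayed (SE 0.49, adjusted p = 0.00058) and by 2.40 in nonunion (SE 0.47, adjusted p = 0.0038). Its partner Itgb1 was 962, 734 and 955 CPM in normal, 861, 893 and 985 CPM in delayed, 927, 452 and 673 CPM in nonunion and 405, 367 and 356 CPM in preOP. Nonunion 2 came closest to the preOP range without entering it. Itgb1 rose by 1.24 in normal (SE 0.29, adjusted p = 0.0064), by 1.28 in delayed (SE 0.29, adjusted p = 0.0081) and by 0.86 in nonunion (SE 0.29, adjusted p = 0.045). The call in nonunion was lost without nonunion 1 (adjusted p = 0.144), nonunion 3 (0.0814), preOP 1 (0.0892), preOP 2 (0.116) or preOP 3 (0.135). It was also lost when genes of low count were kept (0.0626), when replicate number was a block (0.067) and when these 2 groups were fitted alone (0.0575). Fn1, which encodes fibronectin, rose as well, by 2.94, 4.15 and 2.93 in normal, delayed and nonunion (adjusted p = 0.002, 0.00067 and 0.0032).

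Upstream sequence was at hand in the RefSeq table (rat build GRCr8) for 19 of the 28 genes. That of Itga5, Lamc1 and Lama4, which were higher in hematoma, and of Itga4, which was lower, is shown as the 250 bases before the annotated start, 5′ to 3′ on the gene's strand. Capitals mark exact matches on either strand to the Sp1 box GGGCGG or the PU.1 core GAGGAA. Of all 33469 upstream windows of that length, 30.5% hold the Sp1 box and 23.3% the PU.1 core, against 7 and 8 of the 19.
Itga5, chr7:136381306-136381555, minus strand: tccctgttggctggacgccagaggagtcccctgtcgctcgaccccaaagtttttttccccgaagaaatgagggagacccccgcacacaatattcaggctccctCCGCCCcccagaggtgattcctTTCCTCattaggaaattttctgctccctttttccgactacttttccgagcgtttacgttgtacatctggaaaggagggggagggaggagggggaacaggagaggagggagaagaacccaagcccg
Lamc1, chr13:68051987-68052236, minus strand: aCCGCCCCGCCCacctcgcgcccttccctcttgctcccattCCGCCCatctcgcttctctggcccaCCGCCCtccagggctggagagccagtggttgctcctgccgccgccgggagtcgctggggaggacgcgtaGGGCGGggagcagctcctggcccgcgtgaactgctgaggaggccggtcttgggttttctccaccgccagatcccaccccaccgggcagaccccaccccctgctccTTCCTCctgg
Lama4, chr20:43946648-43946897, plus strand: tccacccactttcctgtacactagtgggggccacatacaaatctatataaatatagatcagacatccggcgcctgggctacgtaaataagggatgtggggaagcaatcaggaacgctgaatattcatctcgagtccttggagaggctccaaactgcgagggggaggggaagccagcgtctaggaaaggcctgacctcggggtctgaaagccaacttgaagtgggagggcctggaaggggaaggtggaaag
Itga4, chr3:84569765-84570014, plus strand: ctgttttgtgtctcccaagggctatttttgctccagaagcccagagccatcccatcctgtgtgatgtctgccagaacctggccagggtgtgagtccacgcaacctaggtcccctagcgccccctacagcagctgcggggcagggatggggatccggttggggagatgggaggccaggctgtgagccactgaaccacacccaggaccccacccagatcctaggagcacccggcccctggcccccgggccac
Lamc1 has 5 Sp1 boxes, 2 of which share a base, and 1 PU.1 core in 71.2% G and C, and Itga5 has 1 of each in 55.6%. Lama4 (53.2%) and Itga4 (64.4%) have neither, and the median of all windows is 51.2% G and C. None of the 4 windows holds the AP-1 element TGANTCA (6.3% of all windows, 0 of the 19) or the hypoxia core ACGTG (16.6% of all windows, 2 of the 19). The 3 genes that rose thus share no motif among those searched, and a match describes letters only.

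Among the laminin alpha chains, Lama4 stood at 184, 221 and 204 CPM in normal, 163, 236 and 380 CPM in delayed, 188, 496 and 255 CPM in nonunion and 37.3, 37.8 and 40.6 CPM in preOP. No hematoma library came near the preOP range. Lama4 rose by 2.40 (SE 0.39), 2.75 (SE 0.40) and 3.02 (SE 0.40) in normal, delayed and nonunion, with edgeR adjusted p of 0.00097, 0.00078 and 0.00055. Lama5, the other endothelial chain, was 23.8, 45.4 and 22.6 CPM in normal, 6.06, 11.8 and 25.7 CPM in delayed, 81.0, 138 and 112 CPM in nonunion and 6.61, 9.20 and 10.5 CPM in preOP. The 3 nonunion libraries were above all others, and delayed overlapped preOP. Lama5 rose over preOP by 1.8 in normal (SE 0.49, adjusted p = 0.012) and 3.65 in nonunion (SE 0.52, adjusted p = 0.00076), and differed by 0.73 in delayed (SE 0.48, adjusted p = 0.285). Lama1, a chain of embryonic and epithelial basement membranes, ranged from 4.98 to 47.8 CPM in hematomas and 10.9 to 29.4 CPM in preOP and was not called.

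The balance of both endothelial chains differed between the hematoma groups. Within a library, Lama4 exceeded Lama5 14.7, 9.21 and 17.1 times in TPM in normal, 51.1, 38.0 and 28.2 times in delayed, 4.42, 6.84 and 4.33 times in nonunion and 10.7, 7.82 and 7.36 times in preOP. The 3 hematoma groups did not overlap in this ratio, which was picked after the values were seen and has no test. Lama5 itself was not called between hematoma groups by edgeR: nonunion against normal had a log2 fold change of 1.8 (SE 0.52, adjusted p = 0.1) and nonunion against delayed one of 2.86 (SE 0.54, adjusted p = 0.362). DESeq2 called both (log2 fold changes of 1.87 and 2.88, adjusted p = 0.0144 and 0.000356). The 8 endothelial markers gave 92.0 to 350 CPM in delayed, the lowest group, and 405 to 1518 CPM in nonunion. They gave 462 to 550 CPM in normal and 544 to 576 CPM in preOP, but single markers went both ways between those groups: Vwf was 43.0 to 83.2 CPM in normal and 202 to 266 CPM in preOP, whereas Pecam1 was 129 to 157 CPM and 73.5 to 90.1 CPM. The part of endothelial content in the Lama5 level was not tested.

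**Figure D3:**
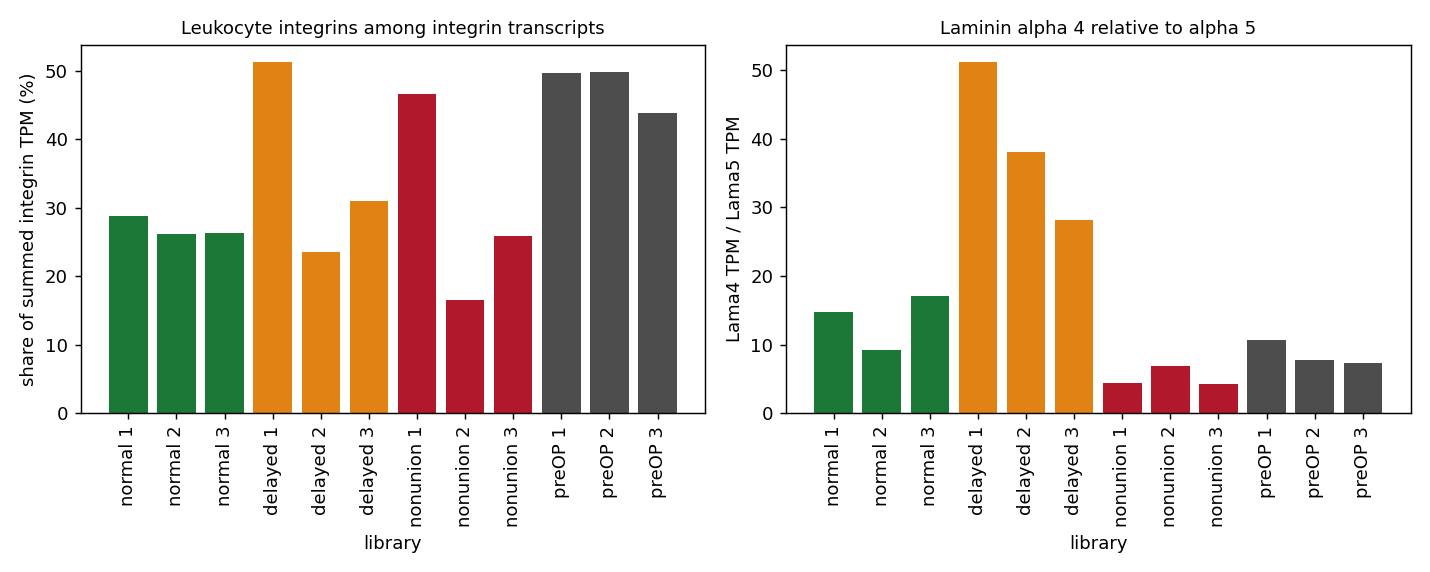
Left, the share of the summed TPM of the measured integrins held by the 7 leukocyte integrins in each library; right, the ratio of Lama4 to Lama5 TPM in each library, both in per cent or fold on axes that start at 0. The ratio is 28.2 to 51.1 in delayed, 9.21 to 17.1 in normal and 4.33 to 6.84 in nonunion.

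The gamma 1 chain Lamc1, the gamma chain of most laminins, was 282, 177 and 256 CPM in normal, 165, 371 and 326 CPM in delayed, 248, 580 and 266 CPM in nonunion and 72.1, 70.5 and 73.6 CPM in preOP. Every hematoma library lay above every preOP library. Lamc1 rose by 1.73 (SE 0.39), 2.00 (SE 0.40) and 2.34 (SE 0.40) in normal, delayed and nonunion, with adjusted p of 0.0054, 0.0041 and 0.002.

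Of the beta chains, Lamb3 stood at 4.66, 6.73 and 4.64 CPM in normal, 31.9, 5.67 and 16.1 CPM in delayed, 9.02, 2.47 and 2.28 CPM in nonunion and 1.43, 1.46 and 1.11 CPM in preOP. Delayed 1 and 3 were the highest. This chain is best known from epithelium. Of the 5 epithelial markers, Epcam, Krt5 and Krt14 were at most 1.23, 0.555 and 0.185 CPM in any library, Krt8 reached 10.9 CPM in nonunion 2 and Cdh1 was 165 to 172 CPM in preOP and at most 6.92 CPM in hematomas. Lamb3 rose by 3.74 in delayed (SE 0.71, adjusted p = 0.0032) and by 1.99 in normal (SE 0.67, adjusted p = 0.033), and differed by 1.79 in nonunion (SE 0.67, adjusted p = 0.067). In nonunion it was called by DESeq2 (1.88, adjusted p = 0.0206), without ribosomal RNA (1.94, 0.0477), without nonunion 2 (2.22, 0.033) and without delayed 2 and nonunion 2 (2.22, 0.00809). The call in normal was lost when any 1 of its 6 libraries was left out: normal 1, 2 or 3 (adjusted p = 0.0517, 0.0835 and 0.0528) or preOP 1, 2 or 3 (0.0781, 0.0767 and 0.0986). Lamb2, the beta chain of vessel and muscle laminins, was 63.4, 92.1 and 65.5 CPM in normal, 43.1, 112 and 127 CPM in delayed, 92.6, 521 and 127 CPM in nonunion and 45.3, 63.6 and 83.5 CPM in preOP. It rose by 1.95 in nonunion (SE 0.62, adjusted p = 0.037), where nonunion 2 was far above the other libraries. Without nonunion 2 the change was 0.94 (adjusted p = 0.12), and the call was also lost without preOP 1, 2 or 3 (adjusted p = 0.105, 0.0875 and 0.0706) or with only these 2 groups in the fit (0.0606).

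Nid2, the nidogen that joins laminin to type IV collagen, had the smallest adjusted p of the 28 genes. It stood at 104, 109 and 129 CPM in normal, 142, 108 and 270 CPM in delayed, 127, 153 and 119 CPM in nonunion and 13.1, 16.4 and 13.5 CPM in preOP. No hematoma library came near the preOP values. Nid2 rose by 2.99 (SE 0.33), 3.60 (SE 0.34) and 3.21 (SE 0.33) in normal, delayed and nonunion, with edgeR adjusted p of 0.00014, 9.9e-05 and 0.00016. The heparan sulfate proteoglycan agrin (Agrn) ranged from 27.9 to 57.2 CPM in 8 hematomas and 30.8 to 43.2 CPM in preOP, with 126 CPM in nonunion 2, and was not called by edgeR over all libraries. In nonunion it was called by DESeq2 (log2 fold change 1.11, adjusted p = 0.0431) and without nonunion 1 (1.43, 0.0145). Vitronectin, a plasma protein made mainly in liver, ranged from 0.0384 to 14.3 CPM in 8 hematomas and was 76.3 CPM in nonunion 2, where of the 4 hepatocyte markers Alb was 36.2 CPM (at most 0.0516 CPM elsewhere), Apoa1 was 0.308 CPM and Ttr and Serpina1 were at 0. Vtn was not called by edgeR over all 12 libraries, but DESeq2 called it in nonunion (log2 fold change 3.79, adjusted p = 0.0145), as did edgeR on these groups alone (3.75, 0.038) and without delayed 2 and nonunion 2 (1.73, 0.0302). In delayed the fit without both libraries gave -3.61 (0.00374).

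The laminin-binding alpha chains went opposite ways. Itga6, found on endothelium and blood progenitors, was 94.9, 47.4 and 81.6 CPM in normal, 115, 68.3 and 49.3 CPM in delayed, 98.3, 109 and 93.9 CPM in nonunion and 167, 189 and 142 CPM in preOP. Every hematoma library lay below preOP. Itga6 fell by 1.15 in normal (SE 0.33, adjusted p = 0.017) and 1.10 in delayed (SE 0.33, adjusted p = 0.029), and was -0.73 in nonunion (SE 0.33, adjusted p = 0.12). The call in normal was lost without normal 2 (adjusted p = 0.0558), normal 3 (0.0579), preOP 1 (0.0644) or preOP 2 (0.0863). That in delayed was lost without delayed 2 (0.134), delayed 3 (0.191), preOP 1 (0.124), preOP 2 (0.167) or preOP 3 (0.052), without ribosomal RNA (0.0614), without delayed 2 and nonunion 2 together (0.106) or with only these groups in the fit (0.081). Itga7, the alpha chain of muscle cells, was 62.3, 218 and 69.6 CPM in normal, 19.2, 188 and 27.9 CPM in delayed, 338, 297 and 443 CPM in nonunion and 15.9, 18.6 and 24.4 CPM in preOP. The 3 nonunion libraries were the highest of the 12, and delayed 1 and 3 were close to preOP.

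Itga7 rose over preOP by 4.19 in nonunion (SE 0.86, adjusted p = 0.0048) and by 2.57 in normal (SE 0.80, adjusted p = 0.024), and differed by 1.99 in delayed (SE 0.78, adjusted p = 0.08). In delayed it was called by DESeq2 (2.08, adjusted p = 0.0182), without delayed 1 (2.50, 0.0256) and without delayed 3 (2.43, 0.0484). In normal the change was 1.75 without normal 2 (adjusted p = 0.107), and the call was also lost without preOP 1, 2 or 3 (adjusted p = 0.0618, 0.0571 and 0.0558). Between hematomas it was not called (nonunion against delayed 2.19, SE 0.84, adjusted p = 0.639), although those groups did not overlap. The 7 skeletal muscle markers summed to 3510 to 8353 CPM in preOP, 734 to 4797 CPM in nonunion, 406 to 3729 CPM in normal and 160, 29840 and 968 CPM in delayed 1, 2 and 3. The 7 smooth muscle and pericyte markers summed to 324 to 356 CPM in preOP and 1260 to 1914 CPM in nonunion, but reached 1039 to 2525 CPM in normal and 202, 4070 and 670 CPM in delayed 1, 2 and 3. Sums as high as those of nonunion stood beside less Itga7 in normal 1 (1513 CPM), normal 2 (2525 CPM) and delayed 2. The muscle filament gene Des made up most of the sum in normal 2 (1824 CPM) and delayed 2 (3824 CPM), but only 454 CPM in normal 1. Of these markers Des was 1483, 112 and 1087 CPM and the smooth muscle myosin Myh11 16.3, 425 and 23.6 CPM in nonunion 1, 2 and 3. Their part in the Itga7 level was not tested.

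**Figure D4:**
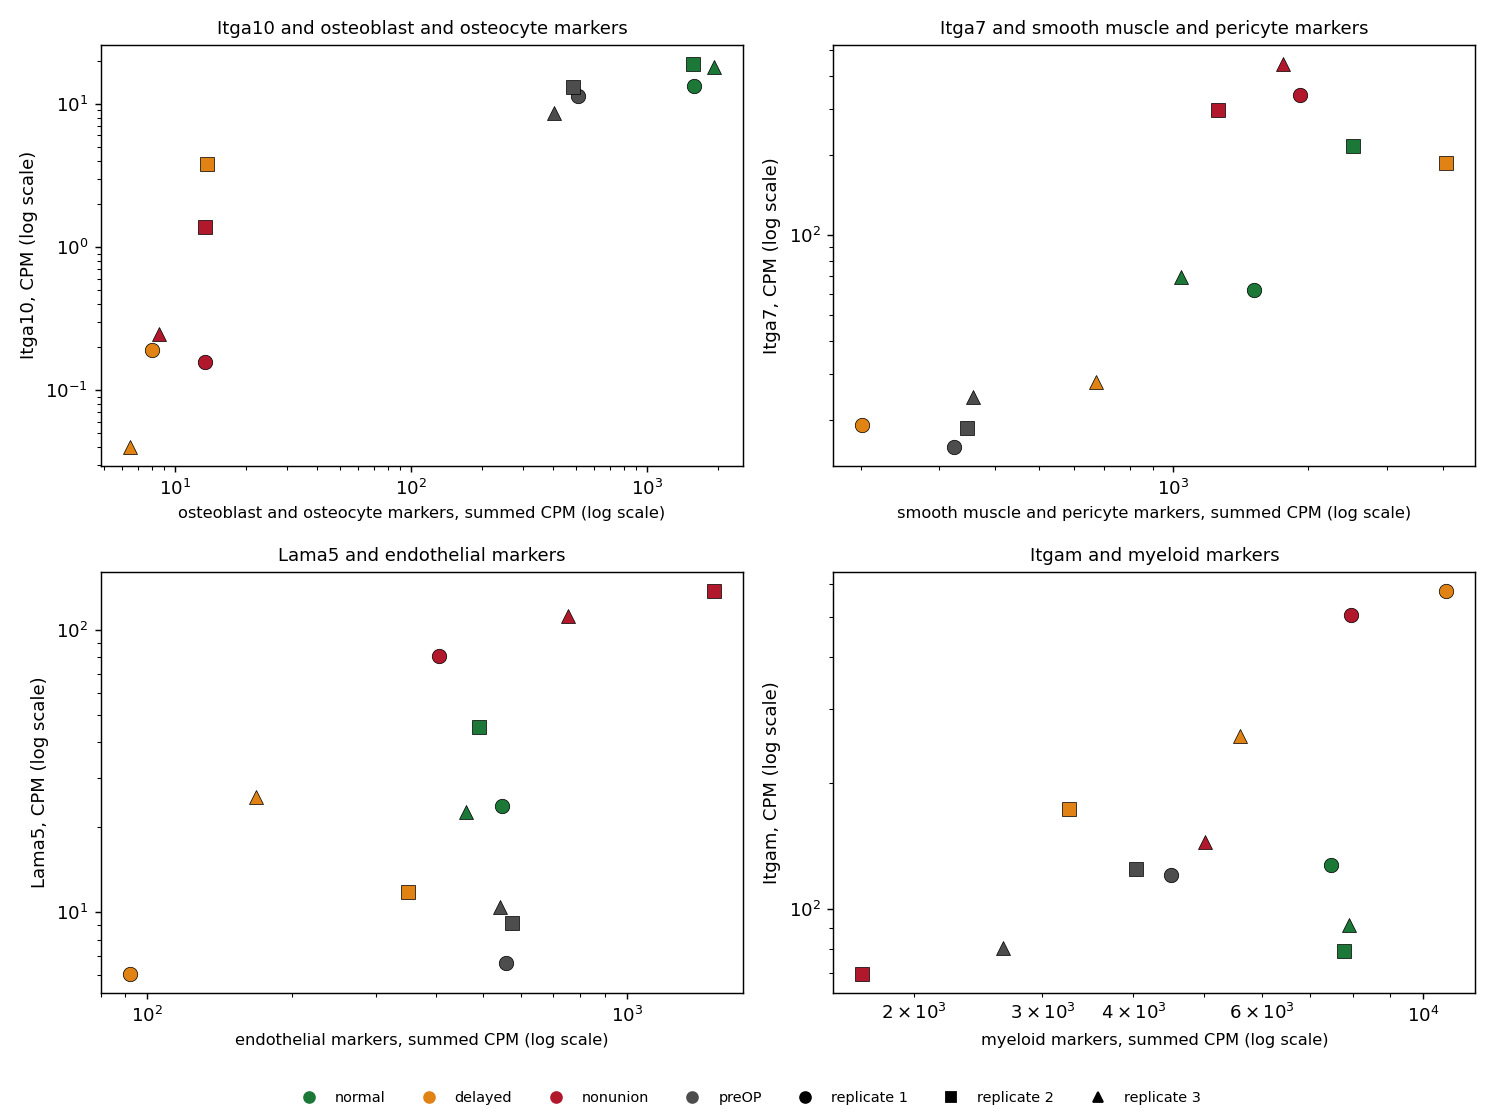
Level of 4 integrin or laminin genes (CPM, log scale) against the summed CPM of a marker list (log scale) in the 12 libraries; colours are groups and symbols replicate numbers. Itga10 is low in the 6 libraries whose osteoblast and osteocyte markers are near 0, Itga7 and Lama5 are highest in nonunion among the groups, and Itgam is highest in delayed 1 and nonunion 1.

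The collagen-binding alpha 10 chain, Itga10, is known from cartilage and bone surfaces. It was 13.4, 19 and 18.0 CPM in normal, 0.192, 3.82 and 0.0403 CPM in delayed, 0.158, 1.39 and 0.248 CPM in nonunion and 11.2, 13.0 and 8.57 CPM in preOP. Normal and preOP libraries lay above all 6 delayed and nonunion libraries. Itga10 fell in nonunion against preOP by 4.50 (SE 1.32, edgeR adjusted p = 0.026) and was -3.04 in delayed (SE 1.17, adjusted p = 0.075). In delayed the change was -6.25 without delayed 2 (adjusted p = 0.000906) and -6.26 without delayed 2 and nonunion 2 (4.4e-05), and it was called by DESeq2 (-2.95, 0.0207) and with the replicate block (-4.19, 0.0186). The call in nonunion was lost without nonunion 1 (adjusted p = 0.0757), nonunion 3 (0.0843), preOP 1 (0.0513) or preOP 2 (0.0571). Against normal it was -3.71 in delayed (SE 1.34, adjusted p = 0.13) and -5.14 in nonunion (SE 1.48, adjusted p = 0.1). It moved with the osteoblast and osteocyte markers given above and, among hematomas, with the 6 chondrocyte markers (190 to 475 CPM in normal, 4.62 to 54.2 CPM in delayed and nonunion); their part was not tested. In preOP the chondrocyte markers summed to only 12.3 to 44.8 CPM.

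Itga1, the other collagen-binding chain measured, binds type IV collagen among others. It was 9.88, 1.04 and 8.47 CPM in normal, 1.69, 3.15 and 2.54 CPM in delayed, 2.49, 23.4 and 3.68 CPM in nonunion and 13.5, 12.7 and 4.62 CPM in preOP. It was not called by edgeR over all libraries, and with delayed and preOP fitted alone it was called (-1.85, adjusted p = 0.0302). The groups overlapped except that delayed lay below preOP. Itga8, found on smooth muscle and mesenchymal cells, ranged from 0.847 to 10.8 CPM in hematomas and was not called by edgeR over all libraries, but was -2.51 in delayed against preOP without delayed 2 (adjusted p = 0.0102). Itgb5, a vitronectin-binding chain, was 81.9 to 141 CPM in 8 hematomas and 98.5 to 112 CPM in preOP, with 229 CPM in nonunion 2. It was not called by edgeR over all libraries. Normal (135 to 141 CPM) lay above preOP. There it was called with both groups fitted alone (0.476, adjusted p = 0.0343) and without delayed 2 and nonunion 2 (0.521, 0.0159).

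Some scarce genes were uneven between libraries of a group. In nonunion 2, Lamc3 reached 45.0 CPM while no other library passed 1.97 CPM, and Itgb4, the hemidesmosome chain that epithelial and Schwann cells use to hold laminin, was 114 CPM against at most 9.79 CPM. The adipocyte gene Adipoq was 2308 CPM in that library, against at most 157 CPM elsewhere. Among Schwann markers S100b was 671 CPM there and no more than 33.1 CPM elsewhere, whereas Sox10 was 1.08 CPM. In delayed 2, Itgb6, a chain known from epithelium, was 46.1 CPM against 0.307 and 0.403 CPM in delayed 1 and 3. It was 11.6 and 14.8 CPM in nonunion 1 and 3 and 0.154 CPM in nonunion 2, where it rested on 1 read. Lamc3, Itgb4 and Itgb6 were not called by edgeR over all libraries. Without delayed 2 and nonunion 2, edgeR called them against preOP. Itgb6 was -2.78 in delayed (adjusted p = 0.00177) and 2.36 in nonunion (0.00156), and Itgb4 -1.77 (0.00526) and -1.14 (0.0358). Lamc3 was -1.35 in normal (0.0356) and -1.96 in nonunion (0.0201), where it rested on 7 and 8 reads. The part of fat, nerve or muscle in these levels was not tested.

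Among leukocyte integrins, Itgad and Itga4 were lower in hematoma than in the femur piece. Itgad, the alpha D chain of macrophages, was 5.71, 1.22 and 3.92 CPM in normal, 32.9, 7.99 and 12.7 CPM in delayed, 17, 4.78 and 7.16 CPM in nonunion and 101, 87.1 and 65.5 CPM in preOP. All hematomas lay below preOP, and delayed lay above normal. Itgad fell by 4.54 in normal (SE 0.73, edgeR adjusted p = 0.00088), by 2.24 in delayed (SE 0.66, adjusted p = 0.026) and by 3.12 in nonunion (SE 0.68, adjusted p = 0.0066). The call in delayed was lost without delayed 2 (adjusted p = 0.0882), delayed 3 (0.124), preOP 1 (0.103) or preOP 2 (0.0903). Itgad is a close copy of Itgax, for which no value was used here, so whether Itgax reads were counted under it was not tested.

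Itga4, which with Itgb1 or Itgb7 binds vascular cell adhesion molecule and fibronectin, was 19.7, 4.78 and 18.6 CPM in normal, 17.7, 10.8 and 9.68 CPM in delayed, 22.5, 8.02 and 8.81 CPM in nonunion and 82.0, 76.8 and 65.7 CPM in preOP. The lowest preOP library lay well above the highest hematoma library. Itga4 fell by 2.38 (SE 0.55), 2.55 (SE 0.55) and 2.50 (SE 0.55) in normal, delayed and nonunion, with adjusted p of 0.0055, 0.006 and 0.0066. Its ligand gene Vcam1, also a marker of marrow stroma, fell by 3.86, 3.94 and 2.56 (adjusted p = 0.0011, 0.0015 and 0.0099). The pan-leukocyte gene Ptprc was 73.9 to 465 CPM in hematomas and 234 to 420 CPM in preOP. The other leukocyte markers were mixed. Coro1a was 44.8 to 263 CPM in hematomas and 317 to 410 CPM in preOP, and Cd52 0.119 to 9.36 and 35.5 to 79.7 CPM. Laptm5 (212 to 683 and 289 to 393 CPM) and Cd53 (90.9 to 488 and 77.2 to 168 CPM) overlapped, and each hematoma mean of Cd53 was above that of preOP. The 4 lymphocyte markers summed to 6.60 to 39.8 CPM in hematomas and 64.5 to 109 CPM in preOP. Most of the preOP sum is Cd79b, at 51.0 to 93.1 CPM in preOP and 0.455 to 11.4 CPM in hematomas. The other markers overlapped: Cd2 was 2.97 to 19 CPM in hematomas and 5.67 to 6.37 CPM in preOP. Cd3e was 0.567 to 9.29 and 3.92 to 5.77 CPM, and Cd3d 0.412 to 8.17 and 2.74 to 3.64 CPM. The part of lymphocytes and marrow cells in these levels was not tested.

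The beta 2 chain, which pairs with alpha D, did not follow Itgad. Itgb2 was 252, 236 and 245 CPM in normal, 558, 162 and 322 CPM in delayed, 599, 100 and 227 CPM in nonunion and 192, 196 and 143 CPM in preOP, and was not called by edgeR over all libraries. It was called higher than preOP in normal when both groups were fitted alone (0.55, adjusted p = 0.0376) and, without delayed 2 and nonunion 2, in delayed (1.53, 0.00792) and nonunion (1.38, 0.0136). Normal libraries lay above preOP, while delayed and nonunion spread over both. Itgam, the alpha M chain of neutrophils and macrophages, was 127, 79.2 and 91.5 CPM in normal, 578, 173 and 259 CPM in delayed, 505, 69.8 and 144 CPM in nonunion and 120, 124 and 80.6 CPM in preOP. Delayed lay above normal and preOP in every library but was not called against either by edgeR over all libraries (log2 fold changes of 1.75, SE 0.73, adjusted p = 0.171, and 1.63, SE 0.65, adjusted p = 0.0839). Against preOP it was called by DESeq2 (1.78, adjusted p = 0.0226), with these groups fitted alone (1.84, 0.0292), without delayed 2 (2.18, 0.0322) and without delayed 2 and nonunion 2 (2.16, 0.00576). Nonunion was called against preOP without nonunion 2 (1.73, adjusted p = 0.0393) and without delayed 2 and nonunion 2 (1.73, 0.0172). The 7 myeloid markers summed to 10760, 3259 and 5604 CPM in delayed 1, 2 and 3 and 7482 to 7901 CPM in normal. Most of this sum is Lyz2, at 8388, 2544 and 4245 CPM in delayed and 5462 to 6367 CPM in normal. Csf1r, of the same list, was 731, 279 and 428 CPM in delayed, 315 to 525 CPM in nonunion, 308 to 393 CPM in normal and 71.6 to 127 CPM in preOP. Its mean was higher in delayed than in normal (479 against 354 CPM), whereas the means of the other markers of the list were lower. These were 5059 against 5924 CPM for Lyz2, 256 against 432 CPM for Tyrobp and 316 against 433 CPM for Fcer1g. For Cd68, Cd14 and Spi1 they were 248 against 296, 145 against 188 and 38.9 against 94.6 CPM. The part of myeloid content in the Itgam level was not tested. Neutrophil markers (4 genes) summed to 8617, 1363 and 1594 CPM in normal 1, 2 and 3, 72.5 to 934 CPM in delayed, 54.6 to 627 CPM in nonunion and 7165 to 9246 CPM in preOP. Most of these sums is S100a8 and S100a9. Csf3r, of the same list, went the other way among hematomas. Its mean was 48.45 CPM in normal, 88.45 CPM in delayed, 59.56 CPM in nonunion and 114.2 CPM in preOP. For Cxcr2 the means were 12.54, 5.259, 9.954 and 33.68 CPM.

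The other leukocyte chains did not pass the test in any comparison. Itgal, the alpha L chain of lymphocytes and other leukocytes, ranged from 17.9 to 77.4 CPM in hematomas and 50.4 to 70.7 CPM in preOP. Itgb7, a chain of gut-homing lymphocytes, ranged from 9.87 to 69.3 CPM and from 35.7 to 52.5 CPM, and Itgae, its partner, from 6.17 to 16.4 CPM and from 7.08 to 9.57 CPM. In TPM, Itgam exceeded Itgal 1.89 to 3.53 times in normal, 9.56 to 12.4 times in delayed, 4.39 to 10.7 times in nonunion and 2.05 to 2.26 times in preOP. Delayed thus stood apart from normal and preOP in this ratio and overlapped nonunion. Leukocyte integrins made up 43.8% to 49.9% of the summed TPM of the integrins measured here in the preOP libraries and 26.2% to 28.8% in the normal ones. Their share spread from 23.5% to 51.2% over the delayed libraries and from 16.5% to 46.6% over the nonunion libraries. Both ratios were picked after the values were seen and have no test.

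Between hematoma groups no gene of the 28 was called by edgeR. Delayed against normal had 0 of 28 called against a background of 7.13%, with 6 at an unadjusted p below 0.05 and 1 by DESeq2 (14.7% of all features; Itgad, log2 fold change 2.36, adjusted p = 0.0144). Nonunion against normal had 0 against a background of 2.37%, with 5 unadjusted and 1 by DESeq2 (Lama5; 9.61% of all features). Nonunion against delayed had 0 against a background of 0%, with 6 unadjusted and 1 by DESeq2 (Lama5; 1.4% of all features). Of 12474 features, 3214 had an unadjusted p below 0.05 in delayed against normal, 2558 in nonunion against normal and 881 in nonunion against delayed. The share among the 28 genes was lower than this in both comparisons with normal and higher in nonunion against delayed. The libraries of both groups did not overlap for 4 of 28 genes in delayed against normal (Itgam and Itgad higher, Itga10 and Itgb5 lower), where 36.5% of all features did not overlap. They did not overlap for 4 genes in nonunion against normal (Itga7, Lama5 and Lamb2 higher, Itga10 lower; 29.6% of all features) and for 2 in nonunion against delayed (Itga7 and Lama5 higher; 8.91% of all features).

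Delayed 2 was the library richest in skeletal muscle markers, and nonunion 2 the one richest in ribosomal RNA and adipocyte markers. Normal 2, with 3729 CPM of skeletal muscle markers, was kept. Without delayed 2 and nonunion 2, 10 of the 28 were called in delayed against normal, 4 higher and 6 lower (background 16.4%). Those higher were Itga5 (1.84), Itgad (2.72), Itgam (2.14) and Lamb3 (2.24), and those lower were Itga10 (-7.03), Itga7 (-2.23), Itga8 (-3.05), Itgb4 (-2.33), Itgb6 (-2.96) and Vtn (-4.35), with edgeR adjusted p from 0.00229 to 0.0406. Leaving out delayed 2 alone gave 3 calls in delayed against normal, Itga10, Itga5 and Itga8. Over all features, fits of that comparison without any 1 of its libraries gave 176 to 726 calls. For nonunion against normal the same pair left out gave 1 call, Itga10 (-6.32, adjusted p = 0.00466; background 3.4%), and for nonunion against delayed 1 call, Itgb6 (5.14, adjusted p = 0.0326; background 0.475%). Leaving out any 1 library of the groups compared gave 0 calls in these last 2 comparisons. The delayed and nonunion arms of the fits without both libraries hold 2 libraries each.

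Genes that work with integrins and laminins were read as 5 lists. Their median log2 fold changes over preOP in normal, delayed and nonunion, to be read against -0.09, -0.03 and -0.00 over all features, were 0.94, 0.84 and 1.98 for other basement membrane genes, -0.27, -0.40 and -0.24 for integrin adaptors and 1.12, 0.68 and 1.22 for other basement membrane receptors. They were 2.94, 2.09 and 1.11 for matrix integrin ligands and -1.14, -2.22 and -0.70 for leukocyte integrin ligands. Of 15 other basement membrane genes tested with preOP (14 between hematomas), 7, 4 and 6 rose and 0, 2 and 1 fell over preOP in normal, delayed and nonunion. The higher calls were 46.7%, 26.7% and 40% of the list, against 20.5%, 12.6% and 13.5% of all features; 22.1%, 15.6% and 14.9% of all features were called lower, and the same shares hold for the other lists. The endostatin collagens Col15a1 and Col18a1 both rose by 3.45 in normal and by 4.06 and 3.78 in nonunion (edgeR adjusted p = 0.00068, 0.00054, 0.00057 and 0.00061). Between hematomas, Egfl6, a secreted basement membrane protein, was 4.53 to 7.66 CPM in normal and at most 0.237 CPM in delayed and nonunion, where it rested on 0 to 6 reads a library (called lower in both, adjusted p = 0.0045 and 0.013). The calcium-binding Smoc2 fell by 2.34 and 2.59 (adjusted p = 0.02 and 0.025). The type IV collagen chain Col4a1 was 572 to 923 CPM in normal, 66.3 to 446 CPM in delayed, 783 to 3129 CPM in nonunion and 97.3 to 154 CPM in preOP, the group means following the same order as those of Lama5. Col4a1 differed from preOP by 0.84 in delayed (SE 0.64, adjusted p = 0.36).

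Of 22 integrin adaptor and adhesion signalling genes tested, 6, 3 and 4 rose and 5, 1 and 1 fell over preOP. The share that rose (27.3%, 13.6% and 18.2%) lay near the background of 20.5%, 12.6% and 13.5%. Parva, encoding the adaptor alpha-parvin, rose by 2.97, 2.84 and 2.90 in normal, delayed and nonunion (adjusted p = 0.00014, 0.00025 and 0.00025), with 25.9 to 60.3 CPM in hematomas and 4.48 to 6.90 CPM in preOP. The scaffold Bcar1 rose by 2.80, 1.28 and 2.24 and fell by 1.52 in delayed against normal (adjusted p = 0.041). Of 12 other basement membrane receptors 6, 5 and 6 rose and 0, 2 and 1 fell, so 50%, 41.7% and 50% rose against 20.5%, 12.6% and 13.5% of all features. Syndecan 4 (Sdc4) rose by 2.45 and 2.88 in normal and delayed, and syndecan 3 (Sdc3) fell by 2.83 in delayed and 1.64 in nonunion against normal (adjusted p = 0.0045 and 0.033).

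Of 11 ligands of leukocyte integrins tested with preOP, 3, 2 and 2 rose and 5, 6 and 4 fell. The share that rose (27.3%, 18.2% and 18.2%) lay near the background of 20.5%, 12.6% and 13.5%. The share that fell lay above the background of 22.1%, 15.6% and 14.9% called lower over all features. Cdh1, the E-cadherin that Itgae binds and that red cell precursors carry, was 165 to 172 CPM in preOP and 0.524 to 6.92 CPM in hematomas. It changed by -5.08, -6.89 and -7.14 in normal, delayed and nonunion (adjusted p = 0.00052, 0.00029 and 0.0003). The globin shares given above were also higher in preOP. Among hematomas the order differed: delayed 1 held 2.959% globin beside 2.57 CPM of Cdh1, and normal 1 0.757% beside 6.92 CPM. Of 15 other ligands of matrix integrins, 11, 7 and 6 rose and 0, 1 and 1 fell, so 73.3%, 46.7% and 40% rose against 20.5%, 12.6% and 13.5% of all features. Tgfbi, an adhesive matrix protein, rose by 3.13 and 3.44 in normal and delayed (adjusted p = 0.00036 and 0.00039). Bone sialoprotein, Ibsp, parted the hematoma groups: it rose by 2.64 over preOP in normal and fell by 5.57 in delayed and 5.47 in nonunion (adjusted p = 0.00028, 3.1e-05 and 3.3e-05).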

How the data were processed

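Per the labels' protocols, frozen tissue was lysed in Trizol and libraries were made with an Illumina TruSeq kit. The submitters' processing notes name bcl2fastq 1.8.4, FastQC, Trimmomatic, Salmon and build rn6; no other version is given there. Per the file headers, each deposited file holds estimated counts of reads for 18321 RefSeq transcripts, TPM scaled by the authors' software, and effective lengths. Here estimated counts were rounded and summed by symbol (17367 transcripts matched RefSeq's GRCr8 table, 954 were kept unnamed). Levels of different genes were compared in the deposited TPM only.

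edgeR 4.0.16 (R 4.3.3) quasi-likelihood tests, two-sided, used TMM scaling, filterByExpr and Benjamini-Hochberg adjustment over all features: 12474 in 1 fit of the 9 hematoma libraries and 12846 in 1 fit of all 12. All 28 genes passed the filter in both. SE is the absolute log2 fold change over the square root of F. CPM are TMM-scaled over 12 libraries, where 3 reads equal 0.115 to 0.462 CPM, a floor for counting error only. The code was tested on simulated data.

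The genes, lists, and alternatives were chosen with earlier results of these data known. The rule for named genes gives values per library for called genes of at least 1 CPM and for the most abundant gene of each role, and up to 3 called genes of a list per comparison. Values per library of Itgam, Lamc3, Itgb4, Itgb6 and Vtn, single marker genes, Col4a1 outside delayed against preOP, Vcam1 outside delayed and Fn1 in normal were picked after the values were seen. Alternatives used DESeq2 1.42.0, other scaling, filters and designs, and left out libraries. Counts and medians cover all 28 genes, of which 1 is not reported by itself here.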

Additional observations from a re-analysis of the deposited data

How the results depend on the processing

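Between hematoma groups, where edgeR called 0 of the 28 genes, DESeq2 called 1 in each of the 3 comparisons. Leaving out delayed 2 and nonunion 2 gave 10 calls in delayed against normal, 1 in nonunion against normal, 1 in nonunion against delayed and 16 in delayed against preOP (10 with all libraries). The shares of all features called in the 3 hematoma comparisons were then 16.4%, 3.4% and 0.475%. In delayed against preOP, 5414 of 13012 features were then called (3622 of 12846 with all libraries). A fit of only the groups compared gave 1 in nonunion against normal. Leaving out 1 library at a time gave 0 to 3 calls in delayed against normal, 0 in both other hematoma comparisons, 9 to 11 in normal, 8 to 11 in delayed and 9 to 14 in nonunion against preOP. Over all features the calls against preOP then ranged from 3952 to 4846, 2292 to 4033 and 2338 to 4221. A replicate block gave 1 call in delayed against normal (Itgad, log2 fold change 2.26, adjusted p = 0.0289) and 12, 11 and 11 against preOP. Over all features the block gave 433 calls in delayed against normal and 5298, 3377 and 3385 against preOP. The labels do not say that a replicate number is shared: deviations of same-numbered libraries correlated at -0.213 to 0.22 over 18 pairs, and 5 of 12 libraries correlated best with their own number.

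Of the 34 calls of a gene in a comparison, 26 held in every setting and library left out, 8 did not, and 0 changed sign. Counts over all features ranged with the setting from 433 to 2076 in delayed against normal (889 in the reported fit), 148 to 1272 in nonunion against normal (296) and 0 to 181 in nonunion against delayed (0, with 881 at an unadjusted p below 0.05); without 1 library they were 176 to 726, 23 to 159 and 0 to 1. The highest counts came without delayed 2 and nonunion 2 in the first and from DESeq2 in the others. Against preOP they ranged from 5298 to 7560 in normal (5466), 3377 to 5414 in delayed (3622) and 3385 to 5425 in nonunion (3648). Leaving out ribosomal RNA moved the median log2 fold change of all features by at most 0.21, and DESeq2 size factors by at most 0.13, both in delayed against preOP. Depth limits nonunion 2 most, where 3 reads equal 0.462 CPM against at most 0.185 CPM elsewhere.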
